A study of Mus musculus with 4 samples.

Results

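The genes described here are the interferon-stimulated genes and the genes of antigen presentation by MHC class I, chosen by name from a list of 47 symbols. A gene counted as measured where the array annotation gave at least 1 probe set with that symbol alone, and the brightest such probe set by its mean stood for it. That rule found 44 of the 47 among 18193 genes in all. Ifi44 and Oas1g had no such probe set, and the probe set that carries Isg15 is shared with another symbol, so these 3 were not analysed here. RNA had been taken from tumour epithelial cells of chemically induced squamous cell carcinomas of mouse skin, all labelled malignant, and hybridised to 1 whole-genome Affymetrix array per sample. The Sox2-GFP+ cells (n = 2 arrays) and the Sox2-GFP- cells (n = 2 arrays) had been sorted from 2 carcinomas of 2 mice by a fluorescent Sox2 reporter, after gating for Epcam and against CD45, CD31 and CD140a. Carcinogen, strain and age are not stated in the labels used here. Both groups carry the same tumour stage and gate, so the Sox2-GFP- cells are tumour cells too and not normal epidermis.

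Interferons are secreted proteins that warn cells of viruses and other danger. Type I interferons act through kinases of the Jak family on a complex that holds Stat2 and Irf9 and binds a response element in the promoters of antiviral genes, while interferon gamma induces Irf1 among its main targets. In keratinocytes and carcinomas the same pathway sets how much peptide is shown to T cells on MHC class I and which chemokines call those cells in.

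Every value below is a deposited log2 signal or a difference of such signals, Sox2-GFP+ minus Sox2-GFP-, so that 1 unit is a doubling. Array medians were 5.49 and 5.51 in the Sox2-GFP+ arrays and 5.60 and 5.56 in the Sox2-GFP- arrays, and the small number of arrays limits the precision. Of the 6 listed epithelial markers, the keratins Krt5 and Krt14 lay near the top of every array and differed by -0.04 and 0.04, Epcam overlapped, Cdh1 was separated lower (-0.96) and Itga6 and Trp63 higher (0.56 and 0.24), and none passed the test. Krt5 read 13.24 and 13.26 in Sox2-GFP+ cells and 13.32 and 13.26 in Sox2-GFP- cells. Sox2 itself, at 3.50 and 3.27 in Sox2-GFP+ cells and 3.14 and 3.43 in Sox2-GFP- cells, lay below the lower quartile of every array, so its transcript does not check the sort.

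Most of the measured interferon and class I genes read lower in the Sox2-GFP+ cells as deposited, but no single one passed the test. The median difference over the 44 was -0.28, against 0.14 over all genes, and 37 of the 44 lay below that all-gene median. In 22 of the 44 (50.0%) both Sox2-GFP+ arrays lay below both Sox2-GFP- arrays, an ordering found in 14.0% of all genes. The opposite ordering was found in 2 of the 44 (4.55%), Irf3 and Irf7, and in 35.5% of all genes. With 1 array left out, which lets more genes separate, 24 to 29 members were lower, against 23.4% to 28.0% of all genes. Members separated higher numbered 12 without Sox2-GFP+ replicate 1 (27.3%), 4 without Sox2-GFP+ replicate 2 (9.09%), 6 without Sox2-GFP- replicate 1 (13.6%) and 5 without Sox2-GFP- replicate 2 (11.4%), against 46.5% to 55.2% of all genes. By a margin of at least 1 log2 unit, 3 of the 44 (6.82%, against 1.36% of all genes) were separated lower, namely Gbp6, Ifi35 and Oasl2, and 0 higher (against 0.665%). In limma, fitted on the 2 groups with p adjusted over all genes by Benjamini-Hochberg, 0 of the 44 and 0 of all 18193 genes (0.0% in either direction) passed an adjusted p of 0.05, and adjusted p ran from 0.172 to 0.984 over the members. With the replicate number as a further term 0 members passed either, beside 0.0715% of all genes higher and 0.868% lower. At an unadjusted p under 0.05 stood 8 members that read lower (18.2%, against 5.22% of all genes) and 0 that read higher (against 9.75% of all genes). Since this is RNA of sorted pools, fewer cells expressing a gene and less RNA per cell cannot be told apart.

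Directions depend on how the arrays are set to each other. Scaling to the poly-A control transcripts that were spiked into each RNA raised every difference by 0.79, and with it the median of all genes to 0.93 and that of the members to 0.51, so that 8 members stayed below 0: Gbp6, Ifi35, Ifitm1, Igtp, Irf9, Oasl2, Rsad2 and Stat2. Under that scaling 25 members were separated higher (84.8% of all genes) and 5 lower (1.94% of all genes). The distance of the member median from the all-gene median was -0.42 as deposited, and a shift of whole arrays cannot move it. It was -0.40 after quantile normalization, -0.32 with the mean of each gene's probe sets, -0.28 over all probe sets, and between -0.31 (without Sox2-GFP+ replicate 1) and -0.50 (without Sox2-GFP+ replicate 2) with 1 array left out. The words lower and higher below describe the values as deposited unless a scaling is named.

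**Figure D1:**
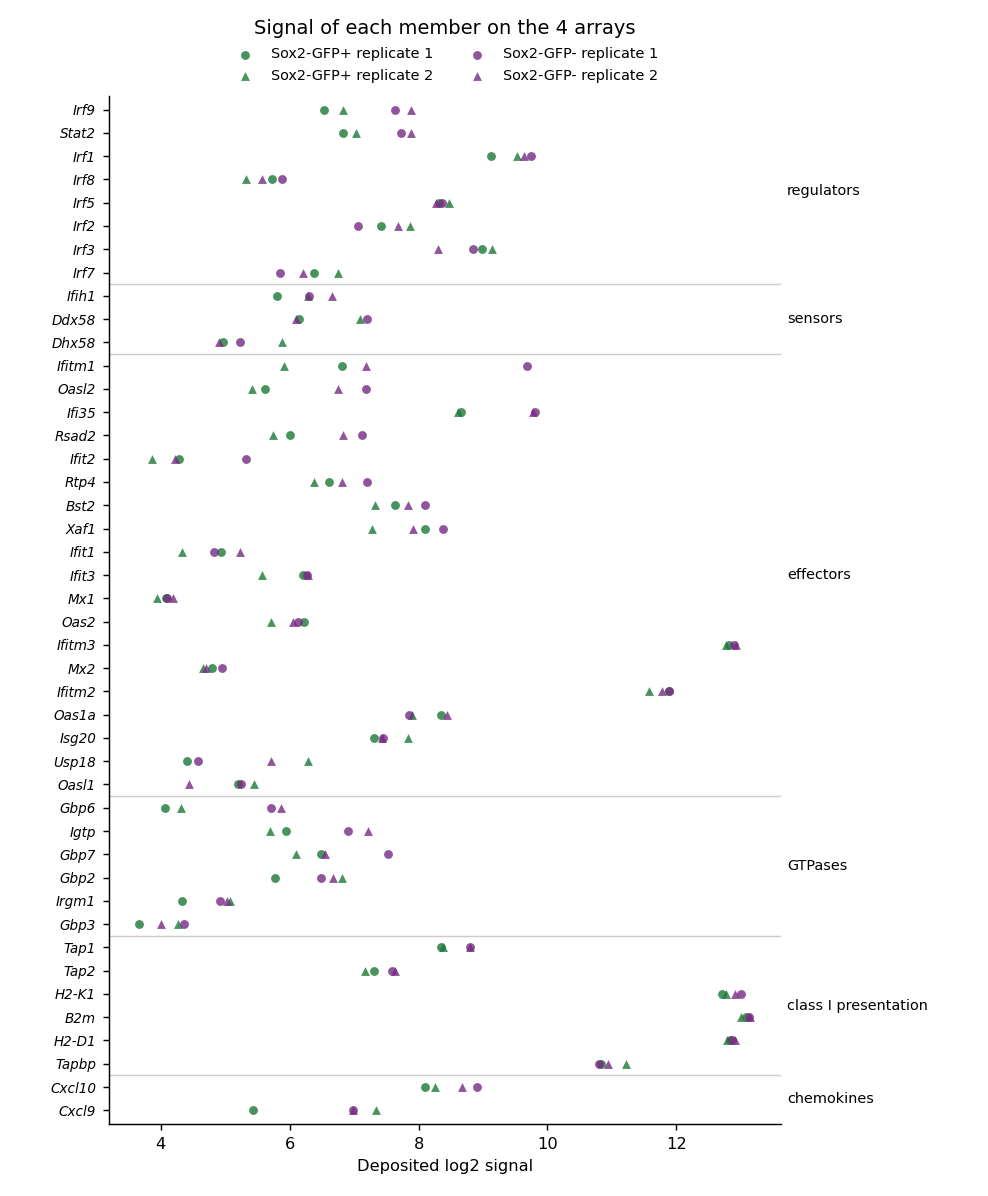
Deposited log2 signal (x axis) of the 44 measured members (rows, grouped by role and ordered by difference) on the 4 arrays. Green symbols are Sox2-GFP+ arrays and purple symbols Sox2-GFP- arrays, with circles for replicate 1 and triangles for replicate 2. The green symbols lie left of the purple ones in 22 rows and right of them in 2.

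Among the regulators, Irf9 and Stat2 of the type I interferon transcription complex read lower in Sox2-GFP+ cells. Irf9, which gives that complex its DNA binding, read 6.53 and 6.83 in Sox2-GFP+ cells, against 7.63 and 7.88 in Sox2-GFP- cells. That is 2.11-fold lower (log2 difference -1.08 ± 0.22 SE, n = 2 per group, limma adjusted p = 0.208). Stat2, the subunit that carries its activation domain, read 6.82 and 7.02 in Sox2-GFP+ cells, against 7.72 and 7.88 in Sox2-GFP- cells (-0.88 ± 0.20, adjusted p = 0.214). For both genes the arrays of a group lay within 0.30 of each other and the groups did not overlap, and both were below 0 under all 3 other scalings, although with spike-in scaling Irf9 was at -0.28 and Stat2, overlapping, at -0.09 (limma adjusted p = 0.742). The other Stat2 probe set showed a similar difference of -0.86, with 6.19 and 6.83 in Sox2-GFP+ cells and 7.37 in both arrays of Sox2-GFP- cells.

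The other regulators differed by less, with Irf1 separated lower and Irf7 and Irf3 higher. Irf7, which amplifies type I interferon production and is itself an interferon target, read 6.37 and 6.75 in Sox2-GFP+ cells, against 5.86 and 6.20 in Sox2-GFP- cells (0.53 ± 0.24, adjusted p = 0.393). Irf3, the latent factor that viral sensors switch on, read 8.98 and 9.15 in Sox2-GFP+ cells, against 8.84 and 8.30 in Sox2-GFP- cells (0.50 ± 0.26, adjusted p = 0.438). Its 4 probe sets disagreed, with 3 higher (0.32 to 0.76) and the dimmest lower (-0.58), so the direction of Irf3 depends on the probe set. Irf1, the main interferon gamma-induced factor, read 9.12 and 9.52 in Sox2-GFP+ cells, against 9.75 and 9.64 in Sox2-GFP- cells (-0.37 ± 0.22, adjusted p = 0.494), and turned to 0.42 with spike-in scaling. The groups overlapped for Irf2, an antagonist of Irf1, for Irf5, which serves Toll-like receptor signalling, and for Irf8, a factor of myeloid cells, with differences from -0.20 to 0.27.

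Stat2 and Irf9 act through the interferon-stimulated response element, so the promoter windows of the members were searched for its core, GAAANNGAAA, on both strands. A window runs from 250 bases before to 50 bases after the annotated start. RefSeq (GRCm38.p6) sequences were at hand for 39 of the 47 listed genes, Gbp6 not among them. Only exact matches inside the window were counted, so an element with other letters or further away would be missed. The core was found in 20 of these 39 genes and in 3.99% of the 27025 genes searched, which do not cover every chromosome. The following stretches, each the 160 bases before the start and read 5′ to 3′ on the gene's own strand, show members that hold it among those separated lower (Rsad2, Igtp and B2m) and those that overlap (Ifit1 and Irgm1), and members without it that were separated lower (Oasl2) and higher (Irf7). The core or its reverse complement TTTCNNTTTC is in capitals. Overlapping copies run together, as in Irgm1.
Rsad2, chr12:26456453-26456612, minus strand: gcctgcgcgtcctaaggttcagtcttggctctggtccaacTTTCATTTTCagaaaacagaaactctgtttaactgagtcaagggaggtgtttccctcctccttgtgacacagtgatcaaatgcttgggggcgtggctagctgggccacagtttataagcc
Igtp, chr11:58199396-58199555, plus strand: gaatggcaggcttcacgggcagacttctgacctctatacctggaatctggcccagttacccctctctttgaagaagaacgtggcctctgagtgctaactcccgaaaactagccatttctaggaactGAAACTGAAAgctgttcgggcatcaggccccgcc
B2m, chr2:122147527-122147686, plus strand: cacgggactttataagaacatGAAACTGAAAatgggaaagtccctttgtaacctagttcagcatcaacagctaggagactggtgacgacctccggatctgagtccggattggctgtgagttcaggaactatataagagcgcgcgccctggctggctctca
Ifit1, chr19:34640729-34640888, plus strand: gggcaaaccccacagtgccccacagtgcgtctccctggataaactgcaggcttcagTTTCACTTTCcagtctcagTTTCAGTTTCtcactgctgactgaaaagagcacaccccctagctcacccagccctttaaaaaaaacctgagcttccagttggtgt
Irgm1, chr11:48871421-48871580, minus strand: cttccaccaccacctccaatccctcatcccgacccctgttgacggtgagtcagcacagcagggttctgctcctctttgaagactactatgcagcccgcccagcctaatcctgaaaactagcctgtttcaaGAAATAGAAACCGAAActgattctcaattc
Oasl2, chr5:114896774-114896933, plus strand: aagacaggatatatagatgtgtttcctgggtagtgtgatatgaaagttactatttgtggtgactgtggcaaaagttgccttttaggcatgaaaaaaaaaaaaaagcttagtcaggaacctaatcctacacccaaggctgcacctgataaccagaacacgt
Irf7, chr7:141266425-141266584, minus strand: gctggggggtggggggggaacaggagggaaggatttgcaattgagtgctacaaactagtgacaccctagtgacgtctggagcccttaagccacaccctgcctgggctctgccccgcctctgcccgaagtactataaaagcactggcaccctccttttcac

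Members with the core and members without it showed similar differences. The median was -0.34 over the 18 measured members that hold it and -0.30 over the 18 that do not, with ranges of -1.25 to 0.27 with it and -2.07 to 0.53 without it. Of the members separated lower, 10 of the 18 with a window hold the core, and so do 8 of the 16 whose groups overlap and 0 of the 2 separated higher. Igtp and Irgm1, sister GTPases on chromosome 11, both hold it close to the start, yet Igtp was separated lower and Irgm1 overlapped. The gamma-activated sequence TTCNNNGAA, which reads the same on both strands, was found in 11 of the 39 listed genes and in 9.55% of all genes searched. The median difference was -0.37 over the 11 measured members that hold it and -0.29 over the 25 that do not.

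**Figure D2:**
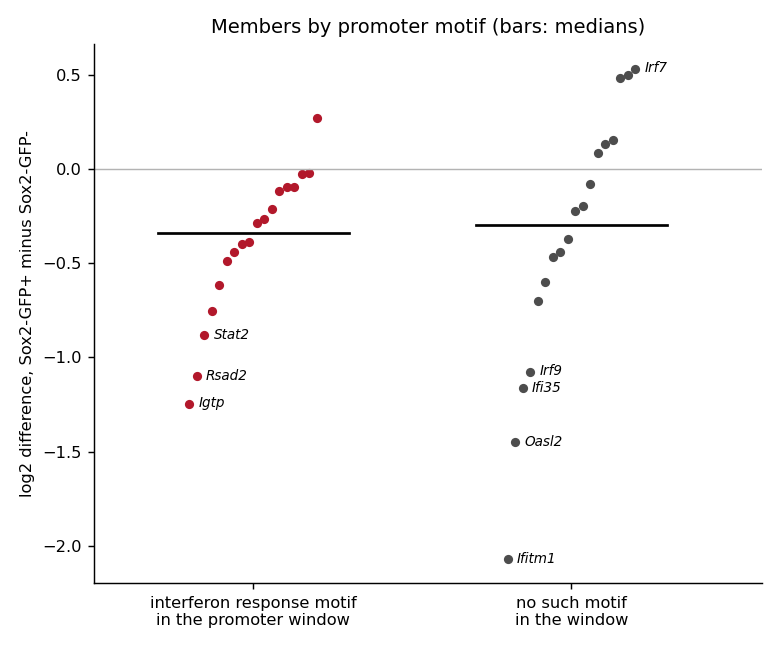
Difference in log2 signal, Sox2-GFP+ minus Sox2-GFP- (y axis), of the 36 measured members with a promoter window, split by whether the window holds GAAANNGAAA on either strand. Points are genes and bars are medians (-0.34 with the motif, -0.30 without). Both columns span most of the range, and Oasl2, Ifi35 and Irf9 sit low without the motif.

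A few antiviral effectors read at least 2-fold lower, and many differed by much less. Of the 19 measured, 9 were separated lower (47.4%, against 14.0% of all genes), 0 higher (against 35.5%) and 10 overlapped. Their median was -0.39 as deposited and 0.40 with spike-in scaling. That median was -0.63 without Sox2-GFP+ replicate 1 and -0.10 without Sox2-GFP+ replicate 2. Ifi35, an interferon-induced leucine zipper protein, read 8.66 and 8.61 in Sox2-GFP+ cells, against 9.81 and 9.78 in Sox2-GFP- cells. That is 2.24-fold lower (-1.16 ± 0.18 SE, n = 2 per group, limma adjusted p = 0.180), and all 3 of its probe sets showed lower values (-1.16 to -0.74). Oasl2, an oligoadenylate synthetase that helps degrade viral RNA, read 5.62 and 5.41 in Sox2-GFP+ cells, against 7.18 and 6.75 in Sox2-GFP- cells, 2.73-fold lower (-1.45 ± 0.24, adjusted p = 0.183). Rsad2, or viperin, which halts viral RNA synthesis, read 6.01 and 5.74 in Sox2-GFP+ cells, against 7.13 and 6.83 in Sox2-GFP- cells, 2.14-fold lower (-1.10 ± 0.22, adjusted p = 0.205). In none of these 3 genes did the groups overlap as deposited, and each was below 0 under all 3 other scalings, with spike-in scaled differences of -0.37, -0.66 and -0.31.

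Ifitm1, a membrane protein that blocks virus entry, had the widest mean difference of the members but also a wide spread. It read 6.81 and 5.91 in Sox2-GFP+ cells, against 9.68 and 7.18 in Sox2-GFP- cells (-2.07 ± 0.87, adjusted p = 0.359). Sox2-GFP- replicate 1 stood 2.50 above replicate 2 of the same group, and the difference was -0.82 without replicate 1 and -3.32 without replicate 2 of the Sox2-GFP- cells. That array was also the highest in fibroblast and endothelial markers, as described below, and the part of such cells in the Ifitm1 value was not tested. Its neighbours on chromosome 7, Ifitm2 and Ifitm3, which block entry at endosomes, differed by -0.10 and -0.12 and spread by at most 0.31 within a group. Likewise Oasl1, next to Oasl2 on chromosome 5, showed 0.48 with overlapping groups (5.20 and 5.45 in Sox2-GFP+ cells, against 5.25 and 4.43 in Sox2-GFP- cells).

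The other effectors differed by less than 1 log2 unit. Among the Ifit genes, Ifit2 overlapped at -0.70, with 2 of its 4 arrays below the lower quartile. Ifit3 was separated lower by a narrow gap (-0.39, and 0.40 with spike-in scaling), and Ifit1, which binds foreign RNA ends, overlapped like Ifit2. Ifit1 read 4.93 and 4.33 in Sox2-GFP+ cells, against 4.83 and 5.22 in Sox2-GFP- cells (-0.40 ± 0.29, adjusted p = 0.556). Mx1, an antiviral dynamin-like GTPase, lay below the lower quartile on all 4 arrays, at 4.08 and 3.93 in Sox2-GFP+ cells and 4.10 and 4.19 in Sox2-GFP- cells. With no detection calls such a value only bounds the transcript, so the Mx1 difference of -0.14 ± 0.19 (adjusted p = 0.754) cannot be read as a level. Ifit1 turned to 0.39 and Mx1 to 0.65 with spike-in scaling. Usp18, which removes Isg15 from proteins and dampens the interferon receptor, followed the replicate number more than the sort, at 4.40 and 6.28 in Sox2-GFP+ cells and 4.58 and 5.72 in Sox2-GFP- cells. Bst2, or tetherin, and Rtp4 were separated lower by smaller differences (-0.49 and -0.51, turning to 0.30 and 0.28 with spike-in scaling), while Oas1a, Oas2, Isg20, Mx2 and Xaf1 overlapped.

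The sensors of viral RNA showed no common direction. Ifih1, the sensor of long double-stranded RNA, read 5.80 and 6.28 in Sox2-GFP+ cells, against 6.31 and 6.66 in Sox2-GFP- cells (-0.44 ± 0.26, adjusted p = 0.485), barely separated and at 0.35 with spike-in scaling. Ddx58, or RIG-I, and Dhx58, its regulator, overlapped with differences of -0.03 and 0.36.

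Interferon-inducible GTPases, which attack the vacuoles of intracellular pathogens, had a median of -0.52 over the 6 measured (0.27 with spike-in scaling). Of these, 3 were separated lower (50.0%, against 14.0% of all genes) and 0 higher (against 35.5%). With 1 array left out that median ran from -0.74 to -0.35. Gbp6 read 4.07 and 4.31 in Sox2-GFP+ cells, against 5.71 and 5.86 in Sox2-GFP- cells (-1.60 ± 0.20 SE, n = 2 per group, limma adjusted p = 0.172). This was the lowest adjusted p of the members. With 1 of its Sox2-GFP+ arrays below the lower quartile, the 3.03-fold difference is best read as a bound, and its dimmer probe set differed by -0.65. Igtp read 5.95 and 5.69 in Sox2-GFP+ cells, against 6.91 and 7.22 in Sox2-GFP- cells, 2.37-fold lower (-1.25 ± 0.22, adjusted p = 0.184). Gbp6 and Igtp stayed below 0 under every scaling run. Gbp7 read 6.48 and 6.09 in Sox2-GFP+ cells, against 7.53 and 6.55 in Sox2-GFP- cells (-0.75 ± 0.38, adjusted p = 0.428), nearly touching between groups and at 0.037 with spike-in scaling. Gbp2, Gbp3 and Irgm1 overlapped, with differences from -0.29 to -0.22, and 2 arrays of Gbp3 lay below the lower quartile.

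Genes of MHC class I presentation differed by at most 0.44, although 5 of the 6 were separated lower (83.3%, against 14.0% of all genes). Their median of -0.16 turned to 0.63 with spike-in scaling. With equal array medians the median was -0.08 and 3 of the 6 were separated lower (against 10.8% of all genes), since B2m and H2-D1 then overlapped. With the mean of each gene's probe sets the median was -0.09. Tap1 and Tap2 form the pump that carries peptides into the endoplasmic reticulum. Tap1 read 8.35 and 8.37 in Sox2-GFP+ cells, against 8.80 and 8.81 in Sox2-GFP- cells (-0.44 ± 0.18 SE, n = 2 per group, limma adjusted p = 0.353). Tap2 read 7.30 and 7.17 in Sox2-GFP+ cells, against 7.59 and 7.64 in Sox2-GFP- cells (-0.38 ± 0.19, adjusted p = 0.419). Neither overlapped between groups, and both turned above 0 with spike-in scaling, to 0.35 and 0.41. The 4 probe sets of Tap1 ran from -0.44 to 0.31, and with their mean the Tap1 difference was -0.0066. Those at -0.02 and 0.12 lay below the lower quartile of every array, so that mean includes values that cannot be read as levels.

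The class I chains themselves differed by at most 0.22. H2-K1, a classical heavy chain, read 12.70 and 12.77 in Sox2-GFP+ cells, against 13.00 and 12.92 in Sox2-GFP- cells (-0.22 ± 0.18, adjusted p = 0.596). H2-D1, the other classical chain, read 12.84 and 12.78 in Sox2-GFP+ cells, against 12.87 and 12.91 in Sox2-GFP- cells (-0.08 ± 0.18, adjusted p = 0.850). B2m, the light chain that every class I molecule needs, read 13.08 and 13.00 in Sox2-GFP+ cells, against 13.13 and 13.14 in Sox2-GFP- cells (-0.10 ± 0.18, adjusted p = 0.820). These values lie near the upper end of each array (maxima of 13.86 to 14.07), and spike-in scaling turned all 3 above 0 (0.57, 0.71 and 0.69). The 9 probe sets annotated to H2-D1 ran from -0.34 to 1.21 and the 4 of H2-K1 from -0.51 to 0.21. Of the H2-D1 probe sets 4 read higher, all far dimmer than the brightest ones, which differed by -0.34 to -0.08. The 1.21 came from values of 6.1 and 4.2 in Sox2-GFP+ cells and 4.0 and 3.9 in Sox2-GFP- cells. Many probe sets of both genes carry the array maker's suffix for possible cross-hybridisation, so the class I heavy chains cannot be fully told apart. Tapbp, or tapasin, which holds class I molecules at the pump, overlapped at 0.16.

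Of the chemokines that draw activated T cells through Cxcr3, Cxcl10 was separated lower. Cxcl10 read 8.09 and 8.25 in Sox2-GFP+ cells, against 8.91 and 8.67 in Sox2-GFP- cells, 1.53-fold lower (-0.62 ± 0.20 SE, n = 2 per group, limma adjusted p = 0.284), and turned to 0.17 with spike-in scaling. Cxcl9 overlapped, with Sox2-GFP+ arrays far apart, at 5.43 and 7.33 in Sox2-GFP+ cells and 6.99 and 6.98 in Sox2-GFP- cells (-0.60 ± 0.63, adjusted p = 0.680). Without Sox2-GFP+ replicate 1 the Cxcl9 difference turned to 0.35.

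**Figure D3:**
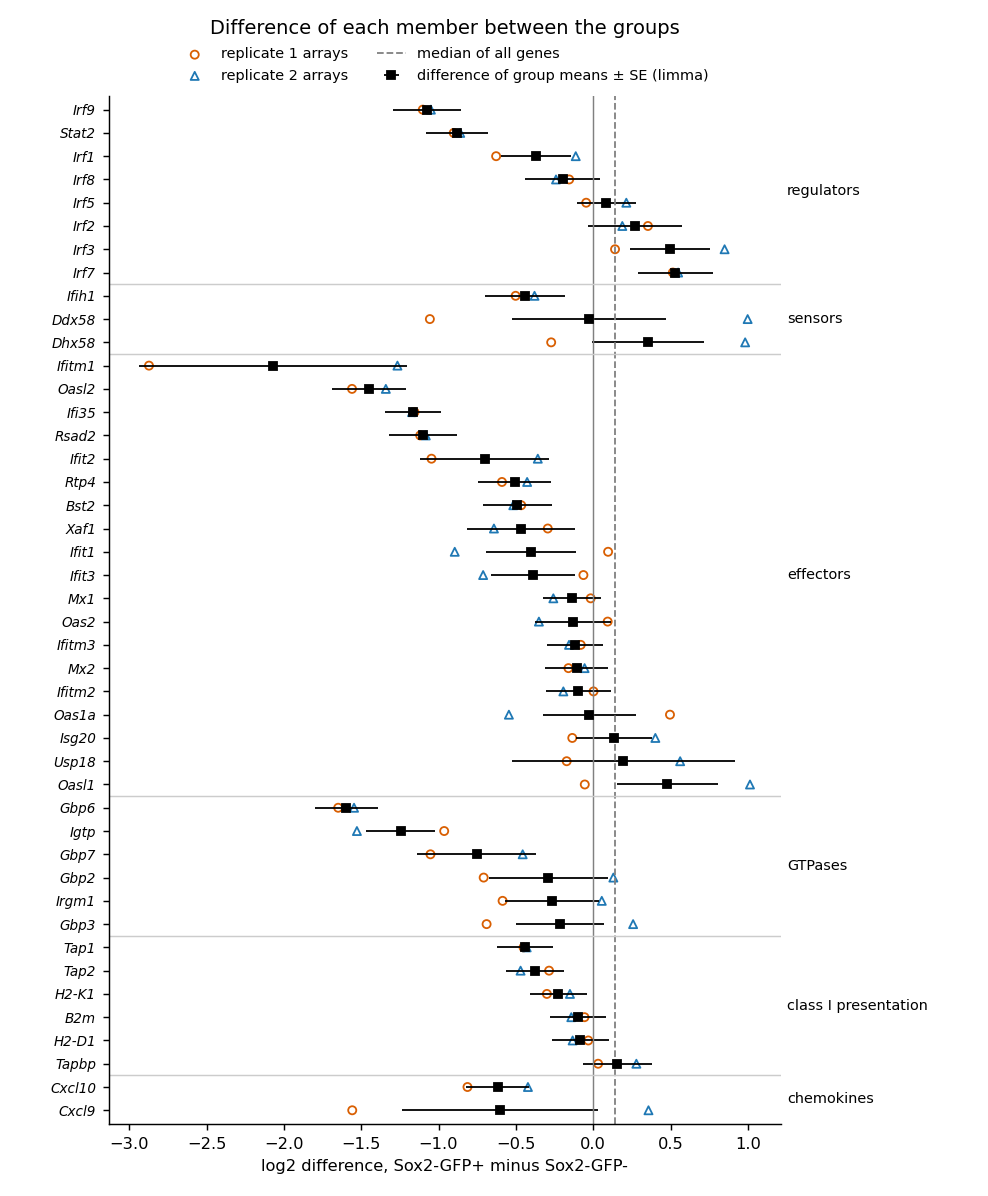
Difference in log2 signal, Sox2-GFP+ minus Sox2-GFP- (x axis), of each member. Squares with bars are the difference of group means ± SE from limma (n = 2 arrays per group), circles the difference between the replicate 1 arrays, triangles that between the replicate 2 arrays, and the dashed line the median of all genes (0.14). Gbp6, Igtp, Oasl2, Ifi35, Rsad2, Irf9 and Stat2 show both replicates well left of 0 as deposited, and Ddx58 and Cxcl9 show replicates on opposite sides.

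Between arrays of the same replicate number, not known to be pairs, differences below 0 were commoner in members than in all genes. Both same-number differences were below 0 in 26 of the 44 members (59.1%, against 20.4% of all genes) and above 0 in 4 (9.09%, against 42.8%). They were close for Ifi35, Irf9, Stat2 and Rsad2 and wide apart for Ddx58, Dhx58, Cxcl9 and Ifitm1.

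Other genes of the pathway, listed for what they do but with earlier results of these data known, went both ways. Of 69 listed, 54 were measured, with a median of 0.02. The groups were separated lower in 11 (20.4%, against 14.0% of all genes) and higher in 14 (25.9%, against 35.5%), and none passed the adjusted test. Nlrc5, the transactivator of class I genes, read 7.30 and 7.18 in Sox2-GFP+ cells, against 8.79 and 8.55 in Sox2-GFP- cells, 2.70-fold lower (-1.43 ± 0.20, adjusted p = 0.180). Ifi27l2a, a small interferon-induced protein, read 7.04 and 5.71 in Sox2-GFP+ cells, against 8.83 and 9.14 in Sox2-GFP- cells, 6.11-fold lower (-2.61 ± 0.47, adjusted p = 0.187). Irgm2, a relative of Igtp, differed by -0.85 ± 0.19 (adjusted p = 0.210). With spike-in scaling these 3 were at -0.64, -1.82 and -0.06. On the other side, 6 of the 10 measured genes of the immunoproteasome and of peptide loading were separated higher (60.0%, against 35.5% of all genes). Nlrc5 alone was separated lower (10.0%, against 14.0%), and the median of the 10 was 0.31. Among these Tapbpl, a relative of tapasin, differed by 0.66 and Psmb10, an immunoproteasome subunit, by 0.63, while the subunits Psmb8 and Psmb9 overlapped at -0.14 and -0.03. Of the 18 other induced genes 5 were separated higher (27.8%, against 35.5% of all genes), among them Dtx3l (0.75), Trim21 (0.73) and Parp12 (0.67). In 4 of the 18 the groups were separated lower (22.2%, against 14.0% of all genes).

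None of the receptors, kinases and feedback genes passed the test. Of the 10 measured receptors and kinases, 4 were separated lower (against 14.0% of all genes) and 1 higher (against 35.5%). The groups overlapped for 5, among them Jak2, Tyk2 and the receptor genes Ifnar1 and Ifnar2 (0.13 each). Stat3, which mainly answers cytokines of the interleukin-6 family, read 10.40 and 10.26 in Sox2-GFP+ cells, against 11.13 and 11.35 in Sox2-GFP- cells (-0.90 ± 0.20, adjusted p = 0.210), and was at -0.11 with spike-in scaling. Jak1, the kinase shared by all interferon receptors, read 9.93 and 10.21 in Sox2-GFP+ cells, against 10.55 and 10.87 in Sox2-GFP- cells (-0.63 ± 0.23, adjusted p = 0.310), and turned to 0.16 under that scaling. Cd274, the interferon-inducible T cell checkpoint ligand, read 5.14 and 4.74 in Sox2-GFP+ cells, against 5.71 and 5.74 in Sox2-GFP- cells (-0.79 ± 0.22, adjusted p = 0.248). With spike-in scaling its difference was 0.0009. The 3 measured feedback genes split, with Socs3 separated lower (-0.44), Pias1 overlapping and Socs1 higher. Socs1, an inhibitor of the Jak kinases, read 6.03 and 6.72 in Sox2-GFP+ cells, against 4.94 and 5.75 in Sox2-GFP- cells (1.03 ± 0.39, adjusted p = 0.321).

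Markers of other cell types read lower in Sox2-GFP+ cells in part. In limma 0 of the 48 marker genes passed (lowest adjusted p = 0.157). With the replicate number as a further term 8 passed as lower (limma adjusted p = 0.0262 to 0.0475), beside 0.868% of all genes. These were Lum, Dpt, Dcn, Pdgfrb, Emcn, Cd74, H2-Aa and H2-Ab1. That fit has 1 residual degree of freedom, and arrays of the same replicate number are not known to be pairs. The mean level of the 8 fibroblast markers, relative to each gene's mean over the arrays, was 0.04 and -2.53 in Sox2-GFP+ cells and 2.12 and 0.37 in Sox2-GFP- cells. All 8 were separated lower, against 14.0% of all genes. The fibroblast collagen gene Col1a1 read 12.57 and 9.60 in Sox2-GFP+ cells and 13.68 and 12.76 in Sox2-GFP- cells, above the upper quartile of each array. Endothelial markers were at -0.23 and -0.93 in Sox2-GFP+ cells and at 1.39 and -0.23 in Sox2-GFP- cells. Of the 7, 1 was separated lower (14.3%, against 14.0% of all genes). The 8 class II antigen-presenting markers were at -0.37 and -0.85 in Sox2-GFP+ cells and at 0.60 and 0.62 in Sox2-GFP- cells. Of these, Cd74, H2-Aa, H2-Ab1 and H2-Eb1 were separated lower (50.0%, against 14.0% of all genes). The other 4, Ciita, Cd207, Flt3 and H2-DMa, overlapped, with differences from -0.11 to 0.05. The mean levels of the class II list did not overlap between groups. Those of the 18 leukocyte markers did, at 0.17 and -0.49 in Sox2-GFP+ cells and 0.34 and -0.03 in Sox2-GFP- cells. Among the leukocyte markers 2 were separated lower (11.1%, against 14.0% of all genes) and 1 higher (5.56%, against 35.5%).

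Over the same arrays the members' mean level was -0.24 and -0.13 in Sox2-GFP+ cells and 0.25 and 0.12 in Sox2-GFP- cells. Ptprc, which encodes CD45, read 4.98 and 4.34 in Sox2-GFP+ cells and 4.97 and 4.18 in Sox2-GFP- cells. The part of other cell types in the members' values was not tested.

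**Figure D4:**
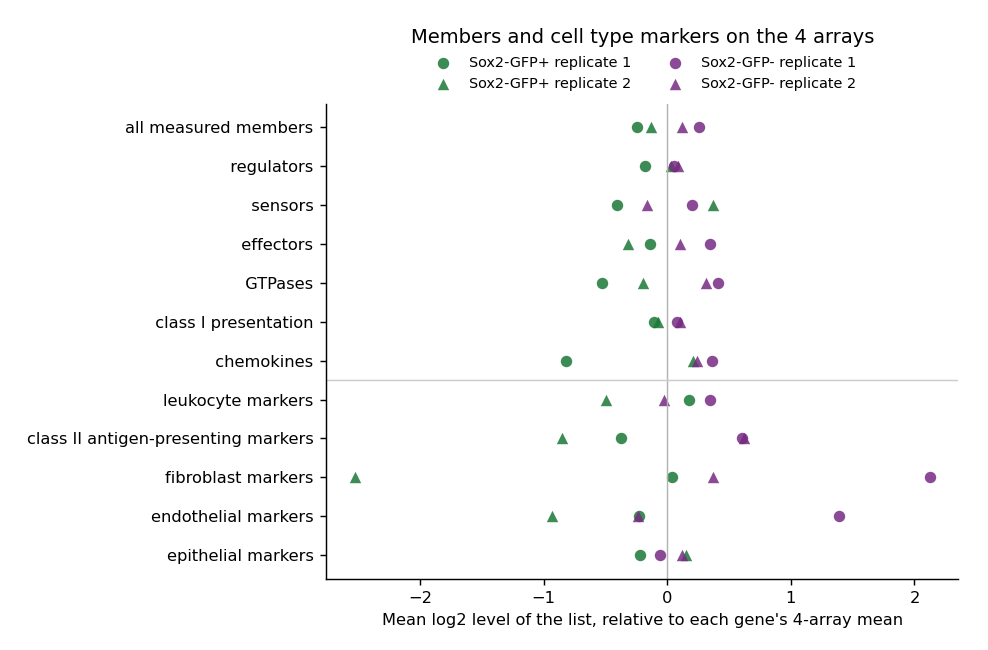
Mean log2 level of the members, of their role groups and of cell type marker lists (rows), relative to each gene's mean over the 4 arrays (x axis), for the Sox2-GFP+ (green) and Sox2-GFP- (purple) arrays, circles for replicate 1 and triangles for replicate 2. All members together lie at -0.24 and -0.13 in Sox2-GFP+ arrays and 0.25 and 0.12 in Sox2-GFP- arrays as deposited, while fibroblast markers spread from -2.53 to 2.12.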

How the data were processed

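The authors deposited log2 values for 45101 probe sets of a whole-genome mouse Affymetrix array in 1 table, with 1 column for each of 4 arrays. That these are log2 was judged from their range. R 2.14.0 is named in the submitters' processing notes. How background was corrected and how arrays were normalized and summarised is not stated in the labels used here. Per the labels' protocols, bacterial control transcripts were added to the RNA before amplification and biotin labelling. Groups and replicate numbers came from the sample titles.

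Tests left out the 64 control probe sets. By the platform annotation 34945 probe sets carried 1 symbol, 932 several and 9160 no symbol. All 44 measured members matched RefSeq (GRCm38.p6) by gene number, with 0 symbols changed. The test was limma 3.58.1 (R 4.3.3, lmFit and eBayes) over 18193 genes, with 2 residual degrees of freedom and a prior of 2.92, checked on simulated data. Low values were not filtered. Series text names 2 tumours of 2 mice, but no label ties a replicate number to a tumour, so the test has no pairing term.

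Named members were up to 4 per role and direction with the widest gap between the groups, plus a fixed set of well-known ones, and others are named as examples. Members and lists were chosen with earlier results of these data known. Alternatives were a replicate block, 3 other scalings, a filter on dim genes, other probe set rules, other priors, an adjusted p of 0.1 and leaving out each array.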

Additional observations from a re-analysis of the deposited data

How the results depend on the processing

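No alternative other than spike-in scaling called a member: the counts stayed at 0 higher and 0 lower with the replicate block, quantile normalization, equal medians, dim genes left out, the mean of probe sets, all probe sets, a trended or robust prior, an adjusted p of 0.1 and each array left out. Spike-in scaling, which adds 0.79 to every difference, called 14 members higher beside 12559 genes in all. It also called 1 member lower beside 158 genes in all. That member was Gbp6, at -0.81 (limma adjusted p = 0.0291) against -1.60 (adjusted p = 0.172) as deposited. The replicate block called 13 genes higher and 158 lower, none of them a member (lowest member adjusted p = 0.0571 in limma, for Gbp6). The replicate differences of the Sox2-GFP+ and Sox2-GFP- arrays correlated with r = 0.16 across genes, which are not independent replicates. A trended prior called 1 higher and 18 lower. Members separated higher numbered 4 with equal medians, 25 with spike-in scaling and 7 when all 80 probe sets of the members were counted, and those separated lower 5 with spike-in scaling and 37 among all probe sets. With 1 array left out they numbered 4 to 12 higher and 24 to 29 lower, as fewer arrays separate more easily. The member median was -0.20 with equal medians, 0.51 with spike-in scaling, -0.37 without dim genes, -0.19 with the mean of probe sets, -0.18 over all probe sets and -0.32 to -0.23 with 1 array left out. Spike-in scaling turned these differences above 0: B2m 0.69, Cxcl10 0.17, Cxcl9 0.19, Gbp7 0.037, H2-D1 0.71, H2-K1 0.57, Ifih1 0.35, Ifit1 0.39, Irf1 0.42, Mx1 0.65, Tap1 0.35 and Tap2 0.41. Cxcl9 turned to 0.35 without Sox2-GFP+ replicate 1 and to -1.55 without Sox2-GFP+ replicate 2, and H2-D1 to 0.20 with the mean of its probe sets, dimmer ones included. Dim values, as of Mx1, only bound a level.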
